A study of Homo sapiens with 8 samples.

Results

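The 29 genes described here encode the enzymes that build cholesterol from acetyl-CoA (20 genes) and proteins that control SREBP2, the transcription factor of sterol synthesis, or that sense or carry sterols (9 genes). They were chosen by name, each matched 1 gene ID among the 78899 genes of the count table, and all 29 were measured well enough to be tested, among 16249 tested genes. The RNA came from GFP-labelled microglia, the macrophages resident in brain, derived from H1, an established human embryonic stem cell line. The labels also call these cells derived from induced pluripotent cells. Tri-culture microglia (4 libraries) grew together with other cells, which the labels do not name, and received no added cytokine. Mono-culture microglia (4 libraries) grew alone and were given 2 ligands of the CSF1 receptor, IL-34 at 100 ng/mL together with M-CSF at 10 ng/mL. Both were sorted by fluorescence 2 weeks after plating, and each of 4 batches gave 1 library to each group. Partner cells and cytokines changed together, so their effects cannot be told apart.

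Cells make cholesterol through mevalonate, which is turned into prenyl diphosphates, then squalene, then lanosterol, then cholesterol. When membranes of the endoplasmic reticulum hold ample sterol, INSIG proteins keep SCAP and its cargo SREBP2 there. When sterol is scarce, SCAP takes SREBP2 to the Golgi, where the proteases encoded by MBTPS1 and MBTPS2 release the part that enters the nucleus and activates genes of the pathway, INSIG1 and SREBF2 itself among them. In the adult brain, astrocytes are regarded as the main makers of cholesterol and pass it to other cells.

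Most of the pathway was lower in tri-culture microglia. Of the 29 genes, 21 fell and 0 rose (edgeR quasi-likelihood test, Benjamini-Hochberg adjusted p under 0.05 over all tested genes), against 13.0% of all tested genes lower and 13.9% higher. The fall covered 17 of the 20 enzymes and 4 of the 9 control genes. The median log2 fold change, tri-culture minus mono-culture, was -0.99 over the 29 genes and 0.02 over all tested genes. A fall of over 2-fold was seen in 14 of the 29 genes and in 5.01% of all tested genes. In 22 of the 29, every tri-culture library lay below every mono-culture library, which held for 14.1% of all tested genes. The ratio was below 1 in all 4 batches for 24 of the 29, with MBTPS1, MBTPS2 and ERLIN1, which did not pass, among them. The share of all tested genes with this pattern was not counted. The 8 genes that did not pass the test were PMVK, GGPS1, TM7SF2, SCAP, INSIG2, MBTPS1, MBTPS2 and ERLIN1. In bulk RNA, fewer expressing cells and less RNA per cell cannot be told apart.

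Library totals ran from 17602010 to 24491765 counts in tri-culture and from 17037481 to 33363972 in mono-culture (2-sided exact permutation p = 0.429 for the difference, where the smallest possible is 0.0286). Of the listed microglial genes, CSF1R, PTPRC and SPI1 had the highest mean CPM over both groups. They averaged 1817, 630.1 and 485 CPM in tri-culture and 1389, 619 and 484 CPM in mono-culture, and none of these 3 differences passed. CPM is counts per 1e6 counts of the library, with TMM-scaled totals. CD68, named after its values were seen, was close to 0 in both groups, at 0.334 CPM in tri-culture and 0.617 CPM in mono-culture. How reads over overlapping genes were counted is unknown, so this value does not show that CD68 was not expressed. Of 12 microglial genes, 3 (25.0%) were higher in tri-culture (CX3CR1, 6.94-fold, P2RY12, 3.10-fold, and C1QB, 1.59-fold). ITGAM alone was lower (8.33%), by 2.82-fold, and these 4 were named after their values were seen. Of all tested genes, 13.9% were higher and 13.0% lower. Of 12 astrocyte genes, 8 (66.7%) were higher in tri-culture and 1 (8.33%) was lower. Their summed level was 1078 to 1321 CPM in tri-culture against 744 to 984 CPM in mono-culture. Most of that sum came from GLUL, S100B and SLC1A3. Of these, S100B alone was higher, at 358 CPM in tri-culture and 124 CPM in mono-culture, and the other 2 did not pass. GFAP, named after its values were seen, averaged 167 ± 80.8 CPM in tri-culture and 0.295 ± 0.153 CPM in mono-culture (SD, n = 4 each), and AQP4 and ALDH1L1 had no count in mono-culture. Of 12 neuronal genes, 6 were tested, 4 of them (66.7%) higher and 1 (16.7%) lower in tri-culture. The 12 genes summed to 30.3 to 54.9 CPM in tri-culture, against 25.1 to 47.8 CPM in mono-culture. MAP2, ELAVL4 and SYT1 had the highest mean CPM of this list over both groups. ELAVL4 was 4.53-fold higher in tri-culture, SYT1 was 3.91-fold lower, and MAP2 did not pass. SNAP25, STMN2, DCX, GAP43, SLC17A6 and GAD1 had no count in mono-culture. In tri-culture their means ran from 0.0344 CPM for GAD1 to 6.57 CPM for GAP43. Of 9 mesenchymal genes, 5 were tested and 2 were higher in tri-culture. Their sums in tri-culture libraries 1 to 4 were 374, 19.4, 377 and 135 CPM, with COL3A1 the highest in libraries 1, 3 and 4, against 16.4 to 36.6 CPM in mono-culture. Markers of other cell types thus moved with the groups, and their part in the changes below was not tested. With tri-culture libraries 1 and 3 left out, which was decided after the marker counts were seen, 18 of the 29 genes remained lower and 0 were higher. Among all 17364 genes tested in that setting, 1520 were lower and 1677 higher. Libraries 1 and 3 had the highest mesenchymal sums. Libraries 2 and 4, which stayed in, held GFAP at 150 and 201 CPM. Library 4 also held a mesenchymal sum of 135 CPM, above every mono-culture library. This setting thus cannot show the part of astrocyte or of mesenchymal markers.

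**Figure D1:**
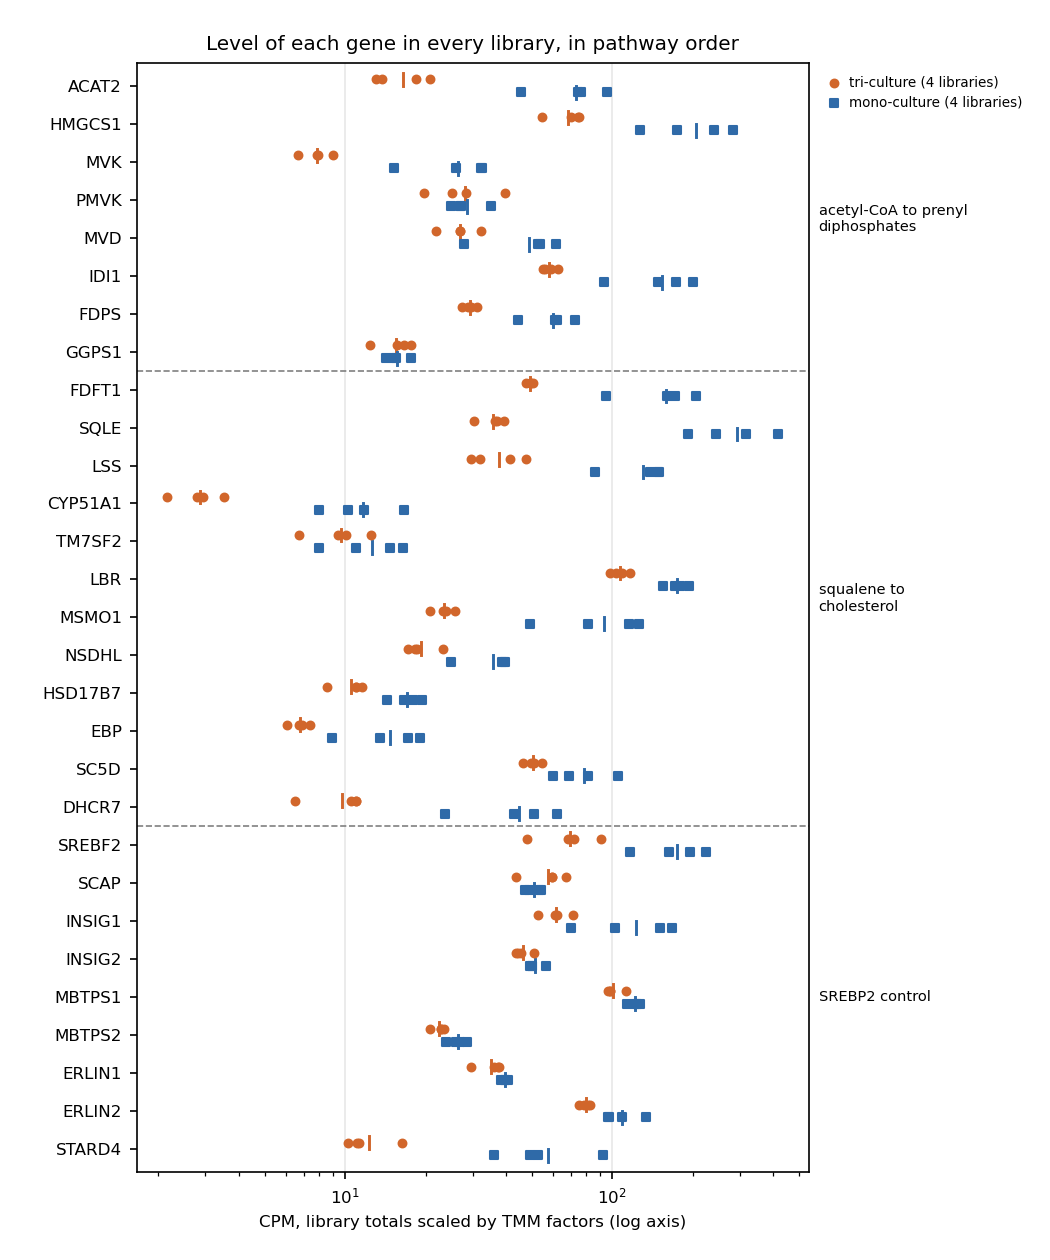
Level of each of the 29 genes in every library, in pathway order from top to bottom, as CPM with TMM-scaled totals on a log axis. Circles are the 4 tri-culture libraries, squares the 4 mono-culture libraries and vertical ticks the group means. Circles lie left of all squares for 22 genes, with SQLE the widest gap, while PMVK, MVD, GGPS1, TM7SF2, SCAP, INSIG1 and INSIG2 overlap.

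Promoters of some of these genes are shown because SREBP2 acts on proximal promoters together with the factors NF-Y and Sp1. The RefSeq promoters used here (GRCh38.p14) covered 24 of the 29 genes. ACAT2, FDFT1, SQLE, ERLIN1 and ERLIN2 had none among them, so the shares below leave out SQLE, the largest fall. The 250 bases before each start were searched on both strands for the sterol element core TCACNCCAC, NF-Y box CCAAT and Sp1 box GGGCGG. Lines below run 5′ to 3′ on the gene's strand, from 220 to 61 bases before the start, with every match of these 3 motifs in capitals. Shown are all 7 genes, of the 18 with a single RefSeq start, whose stretch overlaps no annotated exon of a coding gene (GENCODE 29). The first 5 fell in tri-culture, and MBTPS1 and MBTPS2 did not pass the test.
LSS: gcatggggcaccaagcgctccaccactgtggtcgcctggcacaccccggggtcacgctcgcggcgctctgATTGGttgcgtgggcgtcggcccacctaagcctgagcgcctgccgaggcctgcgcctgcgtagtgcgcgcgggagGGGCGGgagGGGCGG
MSMO1: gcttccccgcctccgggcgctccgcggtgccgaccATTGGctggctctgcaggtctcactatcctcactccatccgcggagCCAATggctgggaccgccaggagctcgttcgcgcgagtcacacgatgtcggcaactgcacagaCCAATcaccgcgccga
HSD17B7: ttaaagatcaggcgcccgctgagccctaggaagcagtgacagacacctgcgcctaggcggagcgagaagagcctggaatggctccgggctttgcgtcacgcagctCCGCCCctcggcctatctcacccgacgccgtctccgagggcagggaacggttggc
SREBF2: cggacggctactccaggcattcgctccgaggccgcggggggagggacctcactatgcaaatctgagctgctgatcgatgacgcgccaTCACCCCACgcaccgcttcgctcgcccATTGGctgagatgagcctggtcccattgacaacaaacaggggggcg
STARD4: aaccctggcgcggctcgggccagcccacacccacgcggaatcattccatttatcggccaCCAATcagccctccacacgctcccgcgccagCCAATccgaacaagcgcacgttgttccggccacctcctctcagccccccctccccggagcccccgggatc
MBTPS1: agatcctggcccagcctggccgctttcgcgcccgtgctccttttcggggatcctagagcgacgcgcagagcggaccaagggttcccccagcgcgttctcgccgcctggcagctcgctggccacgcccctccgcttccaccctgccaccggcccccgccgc
MBTPS2: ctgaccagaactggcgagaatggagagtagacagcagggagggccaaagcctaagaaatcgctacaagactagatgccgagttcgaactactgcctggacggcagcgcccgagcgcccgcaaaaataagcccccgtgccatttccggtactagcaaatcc

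On the plus strand lie the stretches of MSMO1 (chr4:165327449-165327608), HSD17B7 (chr1:162790482-162790641), SREBF2 (chr22:41832885-41833044) and MBTPS2 (chrX:21839397-21839556). On the minus strand lie those of LSS (chr21:46228835-46228994), STARD4 (chr5:111512596-111512755) and MBTPS1 (chr16:84117003-84117162). The LSS stretch holds 1 NF-Y box as ATTGG, its reverse complement, and 2 Sp1 boxes. The MSMO1 stretch holds 3 NF-Y boxes and that of STARD4 holds 2, while that of SREBF2 holds 1 sterol element core followed by 1 NF-Y box. The HSD17B7 stretch holds 1 Sp1 box, as its reverse complement CCGCCC, and no NF-Y box, and those of MBTPS1 and MBTPS2 hold none of the 3 motifs. Among the 17 genes that fell and had a promoter, 15 (88.2%) held a CCAAT box within 250 bases, against 2 of the 7 that did not pass (28.6%). The same share of genes was 41.6% among all tested genes that were lower and 41.1% among all tested genes with a promoter. Counted by promoter, since a gene can have several, the box was in 17 of 22 promoters of the genes that fell (77.3%) and in 32.0% of all 35116 promoters. The Sp1 box was found in 15 of the 17 genes that fell and in 5 of the 7 others, against 72.3% of tested genes. The sterol element core was found in SREBF2 and in no other of the 24 genes, against 1.16% of tested genes. Several of these genes carry sterol elements of other letters, so a promoter without this core is described by these letters only. These shares describe the sequences and were not tested.

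The early enzymes, which lead from acetyl-CoA to mevalonate and on to the prenyl diphosphates, fell in 6 of 8 cases, with a median log2 fold change of -1.22. ACAT2, the cytosolic thiolase that joins acetyl-CoA units, had 18.4, 20.7, 13.8 and 13.0 CPM in tri-culture libraries 1 to 4, against 74.7, 76.1, 45.6 and 95.9 CPM in mono-culture libraries 1 to 4. The groups did not overlap, and the fall was 4.41-fold (log2 fold change -2.14 ± 0.22 SE, edgeR adjusted p = 1.16e-05). By GENCODE 29, 52.3% of its exon sequence overlaps exons of the opposite strand, those of SOD2, SOD2-OT1 and TCP1. TCP1 itself averaged 111 ± 18.9 CPM in tri-culture and 155 ± 5.67 CPM in mono-culture (SD, n = 4 each), and the level of SOD2 is not given here. How reads over overlapping genes were counted is not given in the sources used here, so the size of change of ACAT2 is uncertain.

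HMGCS1, the synthase that makes HMG-CoA, had 54.6, 70.1, 75.1 and 74.6 CPM in tri-culture, against 241, 175, 127 and 283 CPM in mono-culture. All tri-culture values lay below the lowest mono-culture value, that of library 3, and the fall was 3.01-fold (log2 fold change -1.59 ± 0.21 SE, edgeR adjusted p = 9.96e-05). MVK, which adds the first phosphate to mevalonate, had 8.98, 6.64, 7.91 and 7.87 CPM in tri-culture, against 32.7, 25.9, 15.2 and 32.2 CPM in mono-culture, a 3.37-fold fall (edgeR adjusted p = 6.68e-05). The next kinase, PMVK, behaved otherwise. It had 39.7, 28.3, 19.8 and 25.1 CPM in tri-culture and 27.2, 35.0, 24.9 and 26.9 CPM in mono-culture, with the groups intermixed and a log2 fold change of -0.01 ± 0.19 SE. Its sign turned with library size as the scaling, to 0.079, and its difference did not pass in any setting.

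MVD, the decarboxylase that yields isopentenyl diphosphate, had 32.4, 27.0, 21.8 and 26.8 CPM in tri-culture, against 52.9, 61.5, 27.8 and 53.4 CPM in mono-culture. The groups overlapped because tri-culture library 1 lay above mono-culture library 3, yet the 1.81-fold fall passed the test (edgeR adjusted p = 0.00834) and was seen in all 4 batches. IDI1, the isomerase of that product, had 59.2, 62.9, 55.0 and 55.9 CPM in tri-culture, against 173, 148, 93.1 and 201 CPM in mono-culture. The groups stood apart, and the fall was 2.64-fold (edgeR adjusted p = 0.000107).

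The path then branches. FDPS, which makes farnesyl diphosphate, the precursor of squalene and of other isoprenoids, had 31.2, 29.6, 27.5 and 28.8 CPM in tri-culture, against 61.3, 62.3, 44.4 and 72.4 CPM in mono-culture. It fell 2.05-fold without overlap (edgeR adjusted p = 0.000122). GGPS1, which extends farnesyl diphosphate to geranylgeranyl diphosphate, a lipid attached to some proteins, had 16.6, 17.6, 15.7 and 12.4 CPM in tri-culture and 14.3, 17.7, 15.2 and 15.5 CPM in mono-culture. The groups lay within the same range, and the log2 fold change was -0.01 ± 0.14 SE (edgeR adjusted p = 0.986). It turned to 0.088 with library size as the scaling. By GENCODE 29, 37.3% of the exon bases of GGPS1 are shared with TBCE on the same strand. How reads over both genes were counted is unknown, so the level of GGPS1 is uncertain. The 16 listed genes that use prenyl diphosphates outside sterols, for protein prenylation, dolichol and ubiquinone, were all tested. Beside 13.0% lower and 13.9% higher among all tested genes, 0 of the 16 passed in either direction. Their median log2 fold change was -0.08, between -0.35 for RABGGTA and 0.61 for FNTB, the farnesyltransferase beta subunit. Over the whole group the summed level was 589 to 695 CPM in tri-culture and 612 to 684 CPM in mono-culture.

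The committed sterol enzymes, from squalene to cholesterol, fell in 11 of 12 cases, with a median log2 fold change of -1.40. FDFT1, which joins farnesyl units into squalene (ENSG00000079459, chromosome 8, 11795573 to 11839309), had 49.9, 50.5, 47.4 and 49.1 CPM in tri-culture, against 173, 160.0, 94.8 and 206 CPM in mono-culture. The tri-culture values were nearly level and below all mono-culture values, a 3.21-fold fall (edgeR adjusted p = 2.4e-05). SQLE, the epoxidase that adds oxygen to squalene and a slow step of the path (ENSG00000104549, chromosome 8, 124998497 to 125022283), had 39.4, 30.4, 36.4 and 37.2 CPM in tri-culture, against 317, 245, 193 and 417 CPM in mono-culture. The lowest mono-culture library still lay far above the highest tri-culture library. The fall, 8.17-fold, was the largest of the 29 genes (log2 fold change -3.03 ± 0.21 SE, edgeR adjusted p = 5.22e-07).

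LSS, which folds squalene epoxide into lanosterol, the first sterol, had 32.1, 29.7, 41.5 and 47.5 CPM in tri-culture, against 150.1, 138, 86.6 and 148 CPM in mono-culture. It fell 3.46-fold without overlap (edgeR adjusted p = 1.78e-05). CYP51A1, which removes a methyl group from lanosterol, was the lowest enzyme in CPM, at 2.15, 2.93, 3.53 and 2.80 in tri-culture and 11.8, 7.98, 10.2 and 16.7 in mono-culture. The groups did not overlap and the fall was 4.07-fold (edgeR adjusted p = 5.12e-05), but 79.4% of its exon bases are shared with same-strand GENCODE 29 genes that were listed with no count. How reads over these genes were counted is unknown, so its level against those of other enzymes is uncertain. Reads of its pseudogene copies amounted to 5.58% of its own counts.

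A pair of enzymes carries out the next reduction. LBR, which also anchors heterochromatin at the nuclear envelope, had 117, 103, 109 and 98.1 CPM in tri-culture, against 154, 172, 179.9 and 194 CPM in mono-culture. It fell 1.64-fold without overlap (edgeR adjusted p = 0.000255). TM7SF2, which serves the same step, had 6.69, 10.1, 12.5 and 9.37 CPM in tri-culture and 11.0, 14.7, 8.01 and 16.5 CPM in mono-culture, overlapping values that did not pass (log2 fold change -0.37 ± 0.24 SE, edgeR adjusted p = 0.302). On the deposited per-length scale, LBR made up 80.4% ± 4.39 of the pair's transcripts in tri-culture and 83.9% ± 3.79 in mono-culture (SD, n = 4 each), and these shares overlapped.

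MSMO1, the oxidase that starts removal of the remaining methyl groups, had 20.8, 25.8, 23.8 and 23.3 CPM in tri-culture, against 115, 80.9, 49.1 and 126 CPM in mono-culture. Its groups stood apart and it fell 3.95-fold (edgeR adjusted p = 4.27e-05). NSDHL and HSD17B7, which complete that removal, fell 1.84-fold and 1.62-fold without overlap. EBP, the sterol isomerase, had 7.38, 6.07, 6.87 and 6.73 CPM in tri-culture, against 13.6, 19.0, 8.96 and 17.2 CPM in mono-culture, a 2.16-fold fall (edgeR adjusted p = 0.0018). SC5D, the desaturase that follows, fell 1.56-fold, to a mean of 50.4 ± 3.53 CPM in tri-culture, against 78.7 ± 19.3 CPM in mono-culture (SD, n = 4 each). Without tri-culture libraries 1 and 3, SC5D and HSD17B7 no longer passed (edgeR adjusted p = 0.0575 and 0.0502). DHCR7, the reductase that makes cholesterol in the last step of its branch, had 10.5, 6.47, 11.0 and 11.0 CPM in tri-culture, against 51.1, 42.7, 23.6 and 62.2 CPM in mono-culture. Tri-culture values were all below the lowest mono-culture value, and the fall was 4.60-fold (log2 fold change -2.20 ± 0.27 SE, edgeR adjusted p = 4.69e-05).

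**Figure D2:**
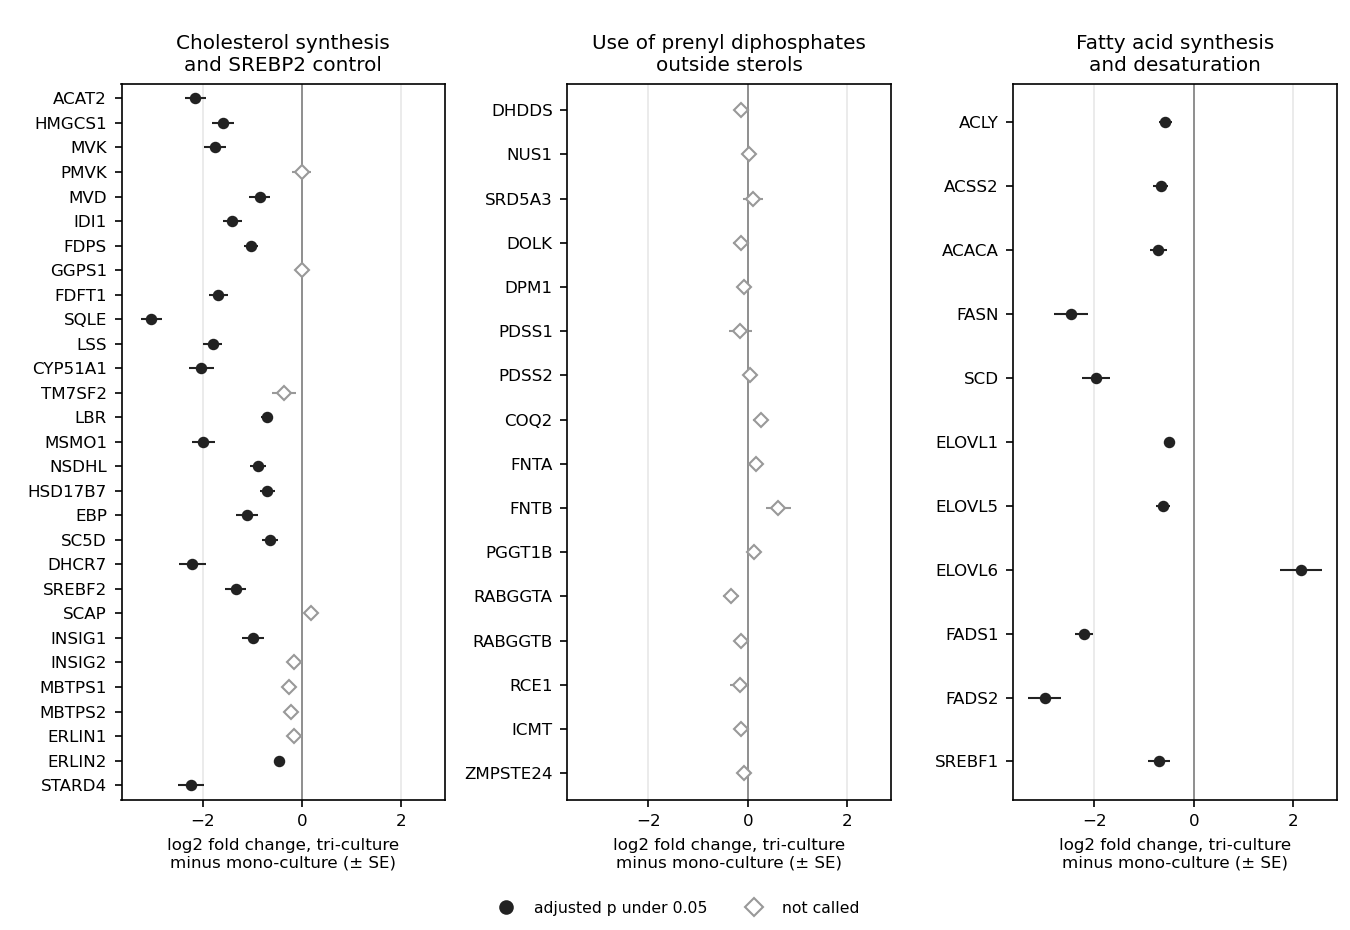
Log2 fold changes, tri-culture minus mono-culture, with bars of 1 SE, for cholesterol synthesis and SREBP2 control (left), use of prenyl diphosphates outside sterols (middle) and fatty acid synthesis (right). Filled circles passed an adjusted p under 0.05 (edgeR) and open diamonds did not. On the left 21 of 29 genes are filled and below 0, in the middle 0 of 16 are filled, and on the right 10 of 11 are filled below 0 with ELOVL6 above it.

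Levels of different enzymes can be set side by side on the deposited per-length scale, which the authors named TPM. In mono-culture SQLE was the highest of the 20 enzymes, at 243 ± 82.3, ahead of IDI1 at 129 ± 39.1 and HMGCS1 at 112 ± 38.2 (SD, n = 4). The SQLE libraries overlapped those of IDI1 and lay above all those of HMGCS1, while IDI1 and HMGCS1 lay within each other's spread. In tri-culture SQLE was in position 6, at 29.9 ± 3.07 (SD, n = 4). PMVK held position 1 in tri-culture, at 66.5 ± 19.6, and position 8 in mono-culture, at 66.6 ± 9.58 (SD, n = 4 each). IDI1 followed in tri-culture, at 49.1 ± 3.17, and its highest library, 53.4, lay above the lowest PMVK library, 47.1. CYP51A1 and MVK were the lowest in tri-culture, at 2.46 ± 0.502 and 3.12 ± 0.367.

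**Figure D3:**
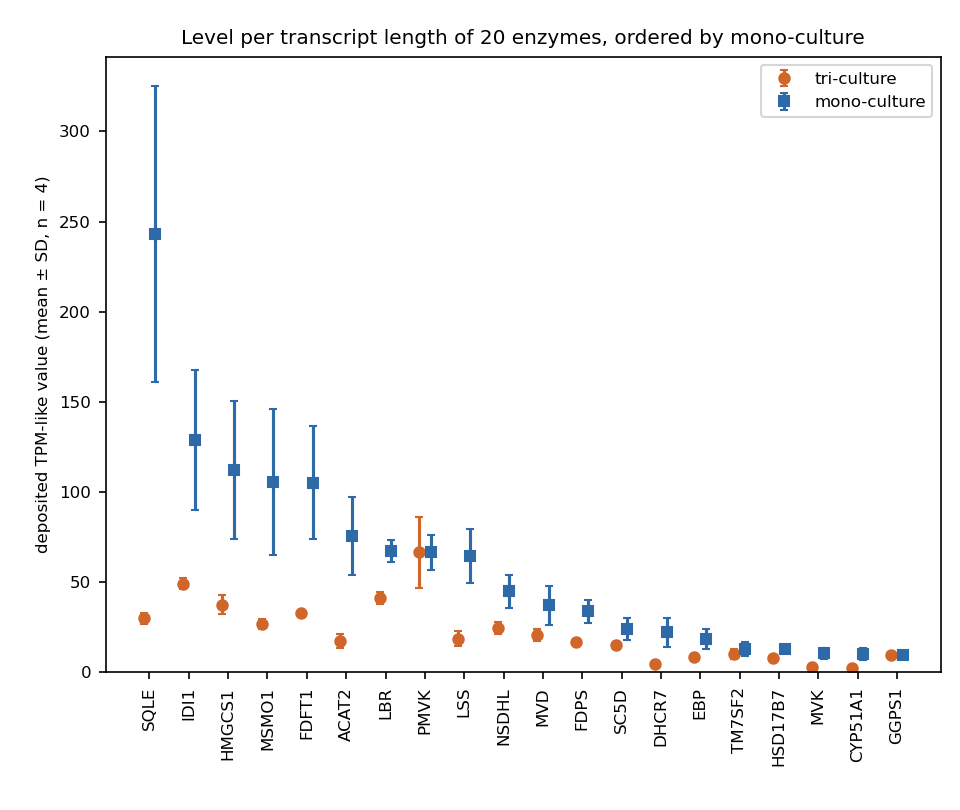
Deposited per-length values of the 20 enzymes in tri-culture (circles) and mono-culture (squares), ordered by the mono-culture mean, with points as means and bars as SD of 4 libraries. SQLE stands highest in mono-culture, at 243, and lies at 29.9 in tri-culture, while PMVK lies near 66.5 in both.

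The enzymes varied more among mono-culture than among tri-culture libraries. Summed over the 20 enzymes, tri-culture libraries 1 to 4 held 627, 612, 605 and 609 CPM, and mono-culture libraries 1 to 4 held 1813, 1607, 1147 and 2146 CPM. Mono-culture library 3 was the lowest of its group for 17 of the 20 enzymes and library 4 the highest for 13 of 20. The median coefficient of variation over the 20 enzymes was 13.2% in tri-culture and 29.6% in mono-culture, while over all tested genes it was 18.9% in tri-culture and 15.7% in mono-culture. For the 8 genes that did not pass the test it was 12.6% in tri-culture and 7.18% in mono-culture. Mono-culture library 3 was also the deepest, at 33363972 counts, and library 4 the shallowest, at 17037481, and the part of depth was not tested. By batch, the median log2 ratio of tri-culture to mono-culture over the 20 enzymes was -1.26 in batch 1, -1.28 in batch 2, -0.75 in batch 3 and -1.50 in batch 4. Batch 3, with the lowest mono-culture sum, thus held the smallest difference.

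The sum over the fatty acid list moved in the same order across mono-culture libraries. It was 643, 662, 787 and 800.1 CPM in tri-culture libraries 1 to 4, and 2348, 1859, 1269 and 2724 CPM in mono-culture libraries 1 to 4. In mono-culture both sums were lowest in library 3 and highest in library 4.

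**Figure D4:**
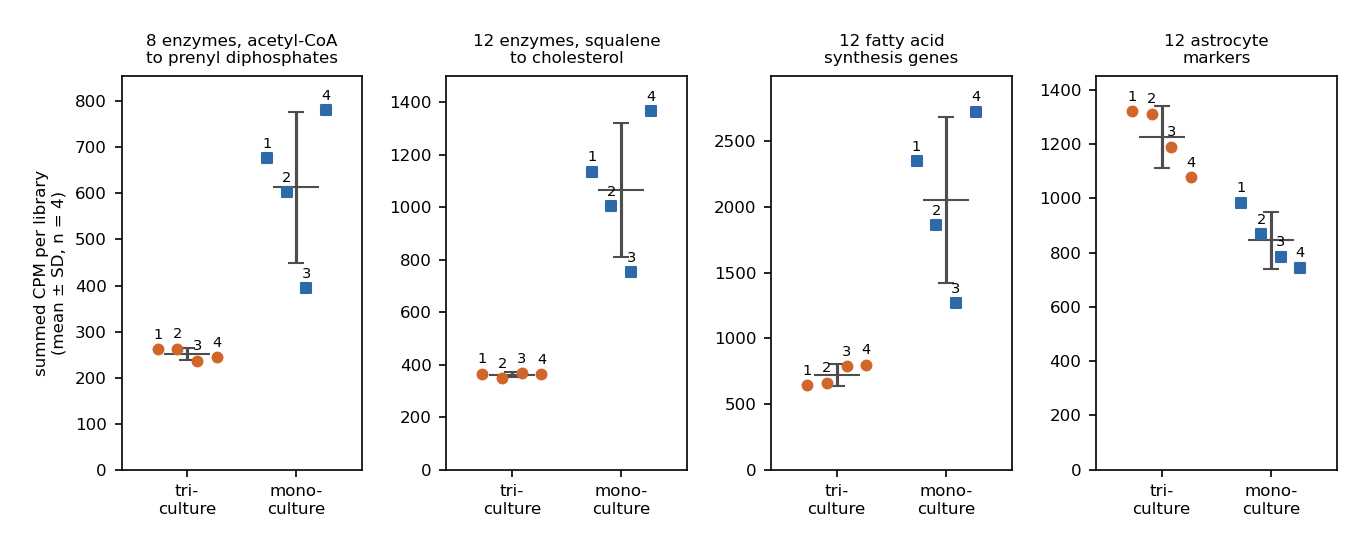
Summed CPM per library of 8 early enzymes, 12 late enzymes, 12 fatty acid synthesis genes and 12 astrocyte markers, with tri-culture as circles, mono-culture as squares, the library number above each point, and the mean with SD in grey. For the late enzymes tri-culture libraries lie at 349 to 368 CPM and mono-culture libraries at 753 (library 3) to 1366 (library 4), and library 3 is the lowest mono-culture point of the first 3 panels.

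Among the genes that control the path, the change was uneven. SREBF2, which encodes SREBP2 (ENSG00000198911, chromosome 22, 41833079 to 41907308), had 68.2, 47.8, 71.7 and 90.8 CPM in tri-culture, against 196, 163, 117 and 224 CPM in mono-culture. No tri-culture value reached the lowest mono-culture value, and the fall was 2.51-fold (log2 fold change -1.33 ± 0.21 SE, edgeR adjusted p = 0.00039). SCAP, the escort and sterol sensor of SREBP2, had 59.5, 43.5, 59.5 and 67.4 CPM in tri-culture and 48.9, 53.0, 47.3 and 54.3 CPM in mono-culture. With TMM scaling it was the only one of the 29 genes with a positive log2 fold change, 0.18 ± 0.13 SE, and it did not pass the test (edgeR adjusted p = 0.371).

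Of the INSIG pair, INSIG1, itself a target of SREBP2, had 60.9, 52.6, 62.2 and 71.5 CPM in tri-culture, against 150.4, 103, 69.9 and 168 CPM in mono-culture. Tri-culture library 4 lay just above mono-culture library 3, and the 1.98-fold fall passed the test (log2 fold change -0.99 ± 0.22 SE, edgeR adjusted p = 0.00475). INSIG2, which also retains SCAP, had 51.1, 45.6, 43.8 and 44.4 CPM in tri-culture and 49.1, 50.0, 50.1 and 56.6 CPM in mono-culture. These values overlapped and did not pass (log2 fold change -0.15 ± 0.10 SE, edgeR adjusted p = 0.321). On the per-length scale INSIG2 made up 46.5% ± 3.89 of the pair in tri-culture and 34.2% ± 8.38 in mono-culture (SD, n = 4 each), with overlap at mono-culture library 3.

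Neither protease that cuts SREBP2 passed the test. MBTPS1, the site-1 protease, had 112, 96.7, 97.7 and 97.9 CPM in tri-culture, against 122, 114, 127 and 124 CPM in mono-culture. The groups did not overlap, but the log2 fold change of -0.27 ± 0.10 SE did not pass with edgeR (adjusted p = 0.0607). It passed with DESeq2 (adjusted p = 0.0258) and with edgeR without tri-culture library 1 (adjusted p = 0.0342). MBTPS2, the site-2 protease, averaged 22.5 ± 1.16 CPM in tri-culture and 26.4 ± 2.01 CPM in mono-culture (SD, n = 4 each), and the difference did not pass (edgeR adjusted p = 0.167).

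ERLIN1 and ERLIN2 are paired proteins of the endoplasmic reticulum that bind cholesterol and restrain SREBP activation. ERLIN2 had 78.8, 82.4, 81.3 and 75.4 CPM in tri-culture, against 96.6, 96.9, 133 and 109 CPM in mono-culture. Its 1.37-fold fall passed (edgeR adjusted p = 0.0114), though not with library size as the scaling (0.0555) or without tri-culture libraries 1 and 3 (0.0667). ERLIN1 averaged 35.2 ± 3.81 CPM in tri-culture and 39.6 ± 0.987 CPM in mono-culture (SD, n = 4 each), which did not pass (edgeR adjusted p = 0.305). Whether the paired genes differed from each other in their change was not tested.

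STARD4, a soluble carrier that moves sterol between membranes, had 11.1, 10.2, 11.3 and 16.4 CPM in tri-culture, against 52.9, 49.2, 36.1 and 92.5 CPM in mono-culture. The groups stood far apart, and the fall was 4.70-fold, close to that of DHCR7 (log2 fold change -2.23 ± 0.26 SE, edgeR adjusted p = 3.4e-05). In both groups library 4 was the highest.

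Of 11 genes of sterol-regulated protein degradation and SREBP handling, 2 fell (18.2%), 2 rose (18.2%) and 7 did not pass, near the 13.0% lower and 13.9% higher of all tested genes, with a median log2 fold change of -0.01. RNF145, a ubiquitin ligase that acts on SCAP in studies of mouse liver, averaged 87.1 ± 6.61 CPM in tri-culture and 115 ± 5.43 CPM in mono-culture (edgeR adjusted p = 0.0087). AUP1, a lipid droplet protein of the same degradation machinery, fell to 83.0 ± 4.30 CPM in tri-culture, against 104 ± 11.3 CPM in mono-culture (edgeR adjusted p = 0.0359). TMEM97, a sterol-binding membrane protein and known SREBP target, went the other way from most of the path. It had 70.2, 62.4, 46.1 and 56.0 CPM in tri-culture, against 31.5, 35.0, 18.9 and 34.2 CPM in mono-culture, a 1.97-fold rise (log2 fold change 0.98 ± 0.19 SE, edgeR adjusted p = 0.00168). PAQR3, a Golgi protein that tethers SCAP and SREBP there, rose 1.52-fold (edgeR adjusted p = 0.0285).

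Of 12 genes of sterol transport and storage inside cells, 11 were tested, 3 fell (27.3%), 3 rose (27.3%) and 5 did not pass, beside 13.0% and 13.9% of all tested genes, with a median log2 fold change of -0.03. OSBPL8, a lipid transfer protein at contacts of the endoplasmic reticulum with the plasma membrane, averaged 325 ± 43.5 CPM in tri-culture and 222 ± 24.2 CPM in mono-culture (edgeR adjusted p = 0.00589). The related OSBPL5 rose 1.96-fold and GRAMD1B, which carries sterol from the plasma membrane, rose 1.71-fold, while its relative GRAMD1A fell 1.34-fold (edgeR adjusted p = 0.0126, 0.0115 and 0.0186).

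Of 12 genes of fatty acid synthesis and desaturation, which SREBP1 chiefly drives, 11 were tested. Of these, 10 fell (90.9%) and 1, ELOVL6, rose (9.09%), beside 13.0% and 13.9% of all tested genes. ELOVL6, named as the single exception after its values were seen, stayed under 1.1 CPM. The median log2 fold change was -0.70. FADS2, a fatty acid desaturase, had 21.0, 17.3, 31.8 and 40.1 CPM in tri-culture, against 224, 215, 105 and 338 CPM in mono-culture, an 8.0-fold fall (edgeR adjusted p = 2.35e-05). FADS1, its partner desaturase, fell 4.64-fold, FASN, the fatty acid synthase, 5.54-fold and SCD, the stearoyl-CoA desaturase, 3.90-fold, each without overlap between the groups (edgeR adjusted p = 2.32e-06, 0.000154 and 0.000197). The other genes of this list that fell did so by less, from 1.41-fold to 1.64-fold.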

How the data were processed

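RNA of sorted microglia was sequenced in bulk (8 libraries). The deposited counts are whole reads per gene. Per the submitters' processing notes, the authors used HISAT2 2.1.0, featureCounts 2.12.3 and the build GRCh38. For annotation, strand and overlapping genes the setting is not given in the sources used here. Another deposited table, named TPM by the authors, was used as a per-length signal, since its totals ran from 865863 to 1138851. In 8077 genes of over 200 counts, the ratio of value to count between libraries was constant to 0.0433%.

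Counts were filtered with filterByExpr (minimum count 10, minimum total 15), TMM-scaled and tested with edgeR 4.0.16 in R 4.3.3 (quasi-likelihood, robust, group only), with Benjamini-Hochberg adjustment over 16249 genes and a threshold of 0.05. SE is approximate, from the size of the log2 fold change over the square root of F. The code was tested on simulated data. The members and lists were chosen with earlier results of these data known. Named genes were all 29 members, up to 4 called genes with the smallest adjusted p of each related list and, of each marker list, up to 3 with the highest mean CPM and those at 0. FNTB and RABGGTA were named as the ends of a range. Some genes of the pathway are not reported here.

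Coordinates and overlaps came from GENCODE 29 and promoters from RefSeq (GRCh38.p14). The labels' batch numbers are shared between the groups, which pairs them. Between the libraries of a pair, departures from the mean of each group had correlations of 0.185, 0.127, 0.264 and 0.0796 in batches 1 to 4. Each batch holds 1 library per group, so it allowed a ratio and no test. Replicates differed beyond sampling noise in every pair, and p-values measure the spread between batches. Alternatives were size factors or DESeq2 1.42.0, library size only, no filter, limma-trend 3.58.1 on log2 of the deposited signal plus 0.1, the batch as a block, and each library left out.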

Additional observations from a re-analysis of the deposited data

Results flagged for a closer look

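Dixon's test for 1 library far from the other 3 of its group picked out 4 of the 58 sets of 4 values (29 genes in each group), and chance alone would pick about 1 in 20. NSDHL stood at 24.9 CPM in mono-culture library 3, where the other 3 mono-culture libraries held 38.7 to 39.6 CPM. DHCR7 stood at 6.47 CPM in tri-culture library 2, where the other 3 tri-culture libraries held 10.5 to 11.0 CPM. INSIG2 stood at 56.6 CPM in mono-culture library 4, where the other 3 mono-culture libraries held 49.1 to 50.1 CPM. MBTPS1 stood at 112 CPM in tri-culture library 1, where the other 3 tri-culture libraries held 96.7 to 97.9 CPM.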

How the results depend on the processing

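Over the alternatives set out at the start, 20 to 22 of the 29 genes were lower and 0 higher, against 21 and 0, and 18 were lower without tri-culture libraries 1 and 3, a setting added after the data were seen. Over all tested genes, 1520 to 2363 were lower and 1677 to 2829 higher across these settings. The number of tested genes also differed, from 16249 to 39751, so these counts are not shares of 1 total. With no filter, 2279 of 39751 were lower and 2715 higher. With library size only, higher genes made up 63.0% of calls instead of 51.7%, 20 of the 29 genes were lower, and over all genes the median log2 fold change shifted to 0.12, against 0.02. In the fit with the replicate block (batch number), 21 of the 29 genes were lower, all of them called without it, and the block changed no call of a member. PMVK changed sign, without passing, to 0.079 with library size only, and ran from -0.225 to 0.131 with single libraries left out (positive without tri-culture library 3 or 4 or mono-culture library 2). GGPS1 changed sign, without passing, to 0.088 with library size only, and ran from -0.071 to 0.087 with single libraries left out (positive without tri-culture library 4 or mono-culture library 2). The cause of these turns was not tested. Depth limits most the genes of lowest mean CPM over both groups, CYP51A1, EBP and TM7SF2. Single libraries changed the call of 1 member, MBTPS1, which passed without tri-culture library 1.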
